A study of Mus musculus with 5 samples.

Results

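The guanylate-binding proteins are large GTPases whose genes are among those most strongly induced by interferon. The 7 genes described here are Gbp2, Gbp3, Gbp4, Gbp5, Gbp6, Gbp7 and Gbp9. They were found by gene symbol among the 32285 genes of the feature tables. Their UMIs (unique molecular identifiers, each standing for 1 captured RNA molecule) were counted in barcodes that reached 1000 UMIs and 500 detected genes and had no more than 10% of their UMIs in mitochondrial genes. That rule left 16271 barcodes, and 16132 cells remained after doublet calls. The members held 14703 UMIs in these cells, and 40.6% of the cells had at least 1 UMI of a member.

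Recipients were C57/BL6 mice, and their spleens were taken 48 h after they were infused through a vein. The saline group received no cells. The live allogeneic and apoptotic allogeneic groups received living or dying spleen cells of the Balbc strain, which is foreign to the recipient. The live isogeneic and apoptotic isogeneic groups received such cells from B6 donors of the recipient's own kind. Each group is 1 library, and the number of mice behind a library, their age and their sex are not given in the sources used here. Leukocytes carrying CD45 and dendritic cells (DCs) were enriched by magnets in separate steps and mixed in equal parts, so that shares of cell types do not describe the whole spleen. RNA of infused donor cells was not separated from that of the recipient.

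Guanylate-binding proteins are made in response to interferon-gamma and to type I interferons, with GAS and ISRE elements as the sequences through which interferon signals reach gene promoters. They gather on the membranes of vacuoles that hold bacteria or parasites, help to break them, and promote inflammasome activation. Gbp2 and Gbp5 end in a motif for prenylation, by which the proteins attach to membranes. In the mouse the genes lie in clusters on 2 chromosomes. Spleen macrophages, DCs and lymphocytes all respond to interferons.

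On GRCm38, the mouse build called mm10 in the submitters' processing notes, Gbp5, Gbp7, Gbp3 and Gbp2 lie in this order on the forward strand of chromosome 3, between 142493978 and 142638008. Their identifiers are ENSMUSG00000105504, ENSMUSG00000040253, ENSMUSG00000028268 and ENSMUSG00000028270. Gbp9, Gbp4 and Gbp6 (ENSMUSG00000029298, ENSMUSG00000079363 and ENSMUSG00000104713) lie on the reverse strand of chromosome 5, between 105077630 and 105293698. All 7 are protein-coding, with up to 11 or 12 exons in a transcript. The gene models of Gbp8, Gbp9 and Gbp4 overlap on the same strand, so that UMIs from the shared stretch cannot be assigned with certainty. Of the 50-base words in the last 500 bases of Gbp6 transcripts, 77.8% also occurred in Gbp10, so that Gbp6 counts are uncertain. The share of words found in another gene was 19.4% for Gbp4, at most 3.77% for Gbp3, Gbp5 and Gbp9, and 0% for Gbp2 and Gbp7.

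The 250 bases before the annotated starts of the 4 chromosome 3 members are shown. The promoter set used here held no windows for Gbp4, Gbp6 and Gbp9, so the choice does not rest on levels. The sequences are from RefSeq on GRCm38.p6, forward strand, with matches to the ISRE motif GAAANNGAAA and the GAS motif TTCNNNGAA, searched on both strands, in capitals.
Gbp5, chr3:142496684-142496933: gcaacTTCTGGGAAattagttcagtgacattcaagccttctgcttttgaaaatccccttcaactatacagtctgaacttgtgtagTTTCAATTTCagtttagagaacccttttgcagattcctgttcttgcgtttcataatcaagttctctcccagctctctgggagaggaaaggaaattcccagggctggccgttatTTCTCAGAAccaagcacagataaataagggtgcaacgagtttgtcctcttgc
Gbp7, chr3:142530086-142530335: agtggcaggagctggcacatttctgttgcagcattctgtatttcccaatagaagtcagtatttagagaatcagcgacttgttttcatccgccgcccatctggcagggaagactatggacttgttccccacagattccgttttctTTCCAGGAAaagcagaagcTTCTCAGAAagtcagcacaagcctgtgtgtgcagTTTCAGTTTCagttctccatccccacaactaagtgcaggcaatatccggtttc
Gbp3, chr3:142559794-142560043: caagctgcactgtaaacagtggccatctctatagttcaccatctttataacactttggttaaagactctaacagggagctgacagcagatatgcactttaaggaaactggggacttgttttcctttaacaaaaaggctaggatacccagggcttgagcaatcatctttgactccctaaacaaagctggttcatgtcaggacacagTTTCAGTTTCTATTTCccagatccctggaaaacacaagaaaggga
Gbp2, chr3:142620413-142620662: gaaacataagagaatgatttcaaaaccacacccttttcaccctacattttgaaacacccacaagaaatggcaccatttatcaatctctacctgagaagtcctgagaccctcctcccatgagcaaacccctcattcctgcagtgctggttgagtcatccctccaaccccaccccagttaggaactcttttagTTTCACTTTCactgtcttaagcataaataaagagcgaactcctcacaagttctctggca
Distances are to the RefSeq starts, which differ from the gene models behind the positions given above. The Gbp5 window lies inside its gene model, which begins at 142493978. The windows of Gbp3 and Gbp2 end past the beginnings of their models, at 142560026 and 142620602. An ISRE match began 165 bases before the start of Gbp5, 53 before that of Gbp7 and 59 before that of Gbp2. Gbp3 had 2 overlapping ISRE matches, at 45 and 39 bases, and a further annotated start of Gbp3 had none. GAS matches lay 245 and 52 bases before the start of Gbp5 and 106 and 87 bases before that of Gbp7. No such letters stood in the windows of Gbp2 and Gbp3. Of all 32851 promoter windows of this length, 2.98% held the ISRE motif, 7.02% the GAS motif and 0.332% both. Not shown are Gbp4, Gbp6 and Gbp9. A match is a string of letters, and binding was not measured.

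**Figure D1:**
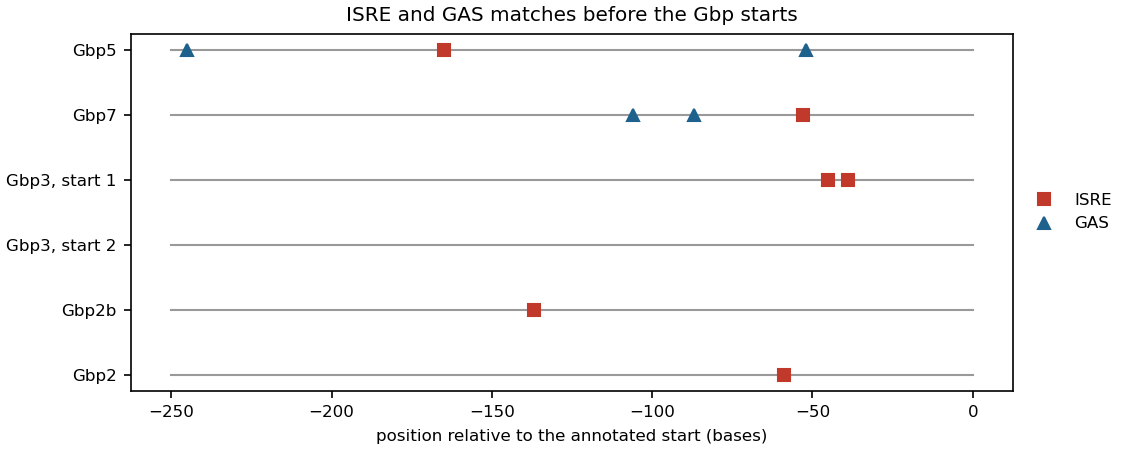
Positions of ISRE matches (squares) and GAS matches (triangles) in the 250 bases before each annotated start of the chromosome 3 genes, in bases relative to the start. Gbp2b is a neighbour that is no member. The first Gbp3 start, Gbp2 and Gbp2b hold ISRE matches alone, Gbp5 and Gbp7 hold both kinds, and the second Gbp3 start holds neither.

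Cells were clustered and named from marker genes, as "like" a cell type, into 17 classes. Comparisons between libraries were made where a class held 30 or more cells and 50000 or more UMIs in both, which 10 classes reached in all 5. Levels are UMIs of a gene per 1000000 UMIs of the class (CPM), and a member was called measured with at least 20 UMIs in the libraries compared. A difference counted as higher or lower from 1.5-fold. With 1 library per group no test across libraries could be run, and no p-value is given. The intervals are exact 95% Poisson or binomial ones that cover counting error only. Values differ between genes in capture and length, so levels are compared within a gene or a fixed sum of genes.

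The median depth was 3421.5 UMIs per cell in the saline library, 4974 in live allogeneic, 3880 in live isogeneic, 4456.5 in apoptotic allogeneic and 2267 in apoptotic isogeneic. The live isogeneic library stood apart in the ribosomal RNA-like transcript Gm42418, at 57564 CPM against 14065 to 17073 CPM in the others, which lowers CPM of all other genes there. Any 2 libraries shared at most 8 cell barcodes. Barcodes of 1 to 100 UMIs, which hold free RNA, gave a summed level of the members of 118 CPM (saline), 249 CPM (live allogeneic), 160 CPM (live isogeneic) and 157 CPM (apoptotic isogeneic). The file of the apoptotic allogeneic library held no such barcodes. The level in free RNA was thus also highest in the live allogeneic library. In live allogeneic free RNA, Gbp2 had 41.7 CPM, Gbp4 49.6 CPM and Gbp7 59.7 CPM. Over the libraries, plasmacytoid DC-like (pDC-like) cells had 0 to 4.16 CPM of Gbp2. Erythroid-like cells had 0 to 1.20 CPM of Gbp4 and 49.0 to 105 CPM of Gbp7. The part of free RNA in the level of a class was not tested.

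The members had different homes among the cell types. There were 13 classes that could be measured in 4 or 5 libraries. Mature DC-like and non-classical monocyte-like cells were measured in all but the live allogeneic library. Endothelial and stromal-like cells were measured in all but the live isogeneic one. Among the 13 classes the summed level was highest in mature DC-like cells, with a median over libraries of 516 CPM and a range of 471 to 602 CPM. These are DCs that have switched on Ccr7 and migrate. Red pulp macrophage-like cells followed with a median of 396 CPM (292 to 780), CD8 T-like cells with 365 CPM (318 to 532) and natural killer-like cells with 354 CPM (329 to 400). The lowest were erythroid-like cells, with 65.5 CPM (57.4 to 124), and type 1 conventional DC-like (cDC1-like) cells, with 54.0 CPM (40.6 to 54.8). The ranges of neighbours in this order overlapped in every case but that of the last pair, erythroid-like above cDC1-like.

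Gbp5, which promotes the NLRP3 inflammasome, was highest in mature DC-like cells, at a median of 130 CPM (102 to 156). Its range there did not overlap that of the next class, marginal zone B-like cells, at 37.6 CPM (33.7 to 42.3). Gbp9 had its highest median in mature DC-like cells, at 74.5 CPM (64.2 to 93.2), followed by CD8 T-like cells at 52.8 CPM (36.6 to 60.7). Its range in mature DC-like cells overlapped those of non-classical monocyte-like (up to 67.8 CPM), follicular and other B-like (up to 71.4 CPM), red pulp macrophage-like (up to 71.6 CPM) and endothelial and stromal-like cells (up to 82.5 CPM). Gbp2 led in mature DC-like cells, at 157 CPM (141 to 212), and its range overlapped that of red pulp macrophage-like cells, at 136 CPM (76.7 to 183). Gbp4 had its highest median there too, at 135 CPM (117 to 143), with overlap with classes that included CD8 T-like cells, at 91.6 CPM (65.6 to 127).

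Gbp7 had another order. Its highest median was in natural killer-like cells, at 156 CPM (124 to 175). That range overlapped those of endothelial and stromal-like (up to 152 CPM) and CD8 T-like cells (up to 153 CPM). Red pulp macrophage-like cells (64.6 to 247 CPM) and CD4 T-like cells (69.9 to 202 CPM) overlapped it too. In mature DC-like cells only 4.14 CPM (0 to 10.8) were found. Gbp7 made up most of the family in erythroid-like cells, whose sum is given above, at 54.2 CPM (49.0 to 105). Gbp6 had its highest median in CD8 T-like cells, at 37.6 CPM (32.1 to 54.6). CD4 T-like cells reached 89.9 CPM and red pulp macrophage-like cells 71.6 CPM. Endothelial and stromal-like (up to 45.8 CPM), pDC-like (up to 42.8 CPM) and follicular and other B-like cells (up to 42.6 CPM) overlapped as well. Gbp6 reached at most 2.48 CPM in cDC1-like cells and 1.84 CPM in type 2 conventional DC-like (cDC2-like) cells. Gbp3 had its highest median in marginal zone B-like cells, at 43.3 CPM (40.1 to 53.2). That range overlapped those of classes that included red pulp macrophage-like cells, at 43.1 CPM (28.8 to 80.9).

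**Figure D2:**
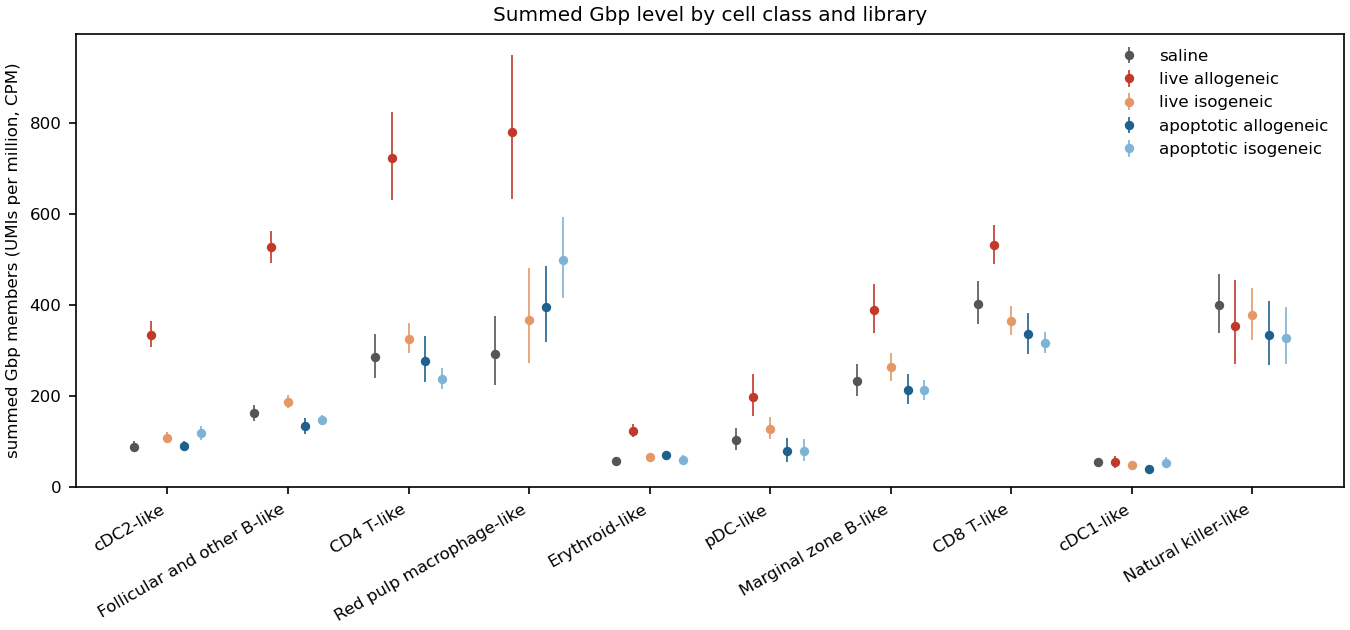
Summed level of the 7 members, in CPM, in the 10 classes compared in all libraries. Points are libraries and bars are exact 95% Poisson intervals, which cover counting error only. The live allogeneic point of cDC2-like cells, at 335 CPM, lies above the other 4, at 88.5 to 118 CPM, while the points of natural killer-like cells lie close together.

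The live allogeneic library had more Gbp RNA in most cell types. In cDC2-like cells, which take up antigen and present it to CD4 T cells, the members summed to 335 CPM in that library. They summed to 88.5 CPM in the saline, 109 CPM in the live isogeneic, 90.1 CPM in the apoptotic allogeneic and 118 CPM in the apoptotic isogeneic library. Only the live allogeneic value stood apart from the rest. The live allogeneic to live isogeneic ratio was 3.08 (2.68 to 3.54), and that to saline was 3.79 (3.23 to 4.45).

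Of the 6 members measured in cDC2-like cells, 5 were at least 1.5-fold higher in the live allogeneic than in the live isogeneic library and 0 were lower. Of all 9583 genes measured in this comparison, 11.5% were higher and 13.3% lower. Against saline, 5 of 6 were higher, beside 14.1% of all genes. The comparisons with live isogeneic and with saline share the live allogeneic library. The median ratio of the 6 members to live isogeneic was 4.13.

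In these cells Gbp2, which coats vacuoles of parasites and bacteria, had 103 CPM in the live allogeneic library. It had 14.8 CPM in saline, 20.8 CPM in live isogeneic, 8.58 CPM in apoptotic allogeneic and 19.6 CPM in apoptotic isogeneic. Its ratio of live allogeneic to live isogeneic was 4.97 (3.71 to 6.74), and 0.282% of measured genes had a larger one. Gbp5 had 58.7 CPM in live allogeneic, against 8.81 CPM in saline, 7.47 CPM in live isogeneic, 12.9 CPM in apoptotic allogeneic and 11.9 CPM in apoptotic isogeneic. Its ratio was the largest of the 6 members, at 7.86 (4.95 to 12.99), and only 10 of 9583 genes were above it. In both genes the live allogeneic value lay far above the other 4 libraries.

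Gbp7, known for linking phagosomes to the NADPH oxidase and autophagy, had 61.8 CPM in the live allogeneic library and 9.21, 16.2, 13.7 and 17.5 CPM in the other 4, in the same order. Its ratio to live isogeneic was 3.80 (2.68 to 5.45). Gbp3 had 31.8 CPM against 7.21, 7.15, 7.02 and 12.9 CPM, a ratio of 4.45 (2.66 to 7.70). Gbp4 had 44.7 CPM against 17.6, 19.2, 18.7 and 21.7 CPM, a ratio of 2.33 (1.63 to 3.34). All 4 members of the chromosome 3 cluster were thus higher by at least 3.80-fold.

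Gbp9 was the exception in these cells. It had 33.0 CPM in live allogeneic, 30.03 CPM in saline, 37.4 CPM in live isogeneic, 28.9 CPM in apoptotic allogeneic and 33.0 CPM in apoptotic isogeneic. The live allogeneic value lay within the range of the other 4, and the ratio to live isogeneic was 0.884 (0.628 to 1.23). Its chromosome 5 neighbour Gbp8, no member, had 59.3 and 45.5 CPM in the live allogeneic and live isogeneic libraries, a ratio of 1.30 (0.997 to 1.70). Gbp6 was not measured, with 3 and 2 UMIs in these libraries. Its level lay between 0.390 and 1.84 CPM in the 5 libraries, and between 3.57 and 20.1 CPM in free RNA of the 4 libraries with such barcodes.

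**Figure D3:**
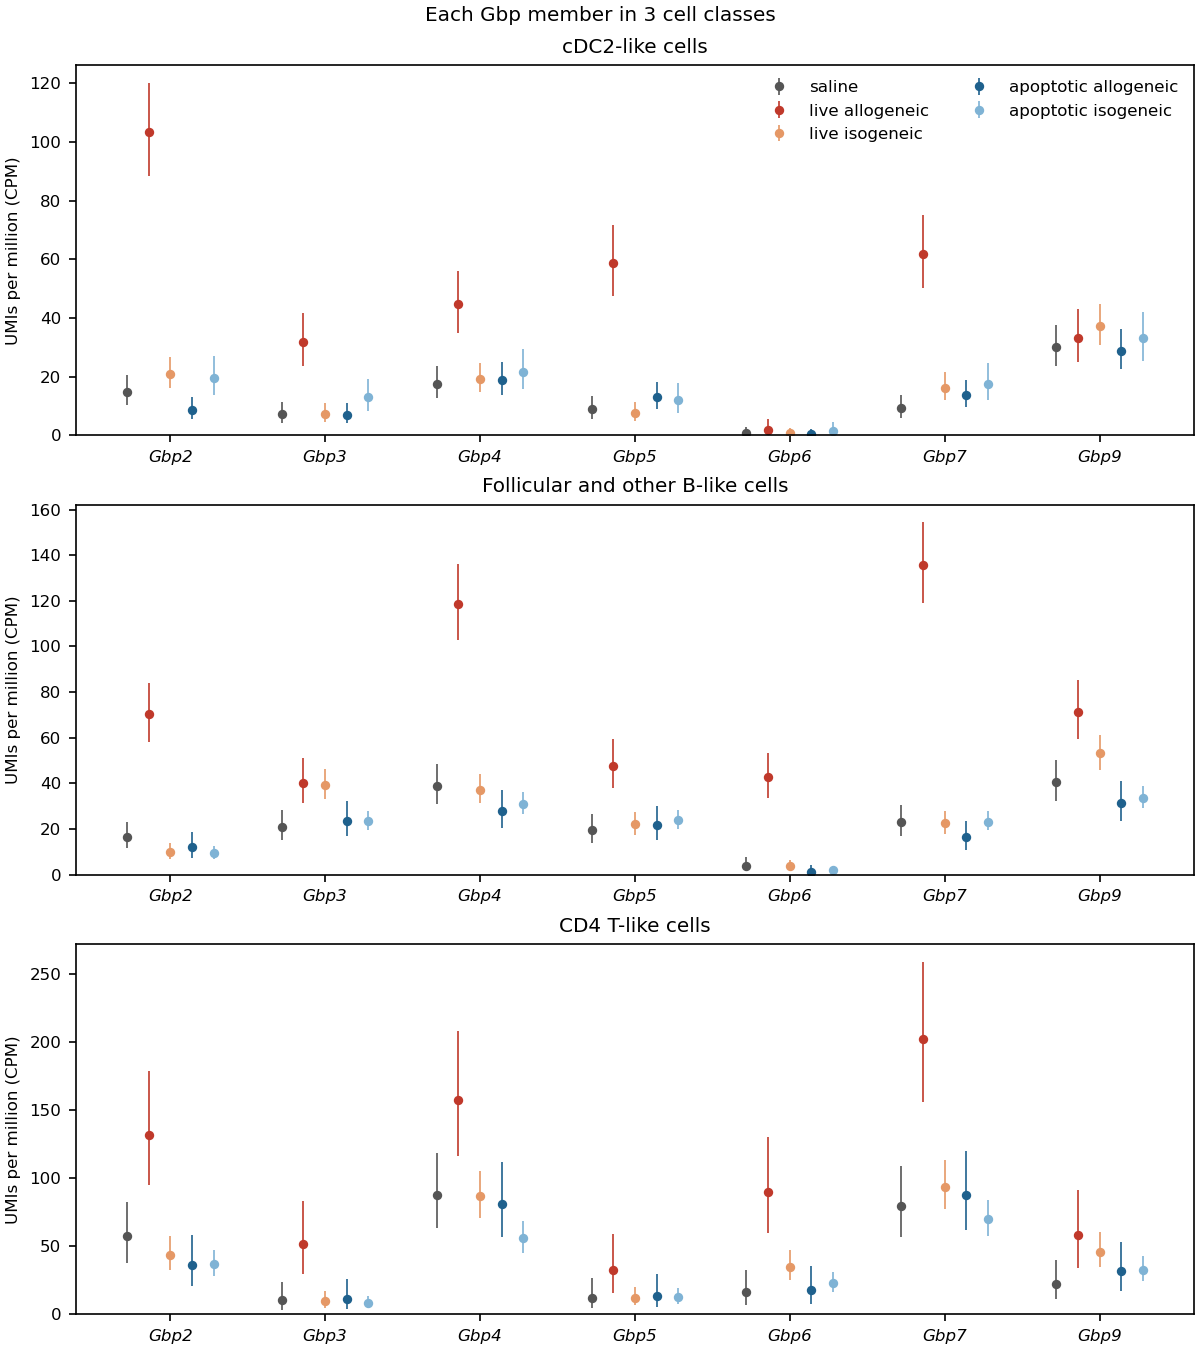
Level of each member, in CPM, in cDC2-like, follicular and other B-like and CD4 T-like cells. Points are libraries and bars are exact 95% Poisson intervals. In cDC2-like cells the live allogeneic points of Gbp2, Gbp3, Gbp4, Gbp5 and Gbp7 stand above the others, and those of Gbp9 lie together.

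Cells were read at different depth, so each was also reduced at random to 1000 UMIs. At least 1 UMI of a member was then found in 16.4% of live allogeneic cDC2-like cells (10.7% to 23.6%), and in 7.66% to 9.46% in the other libraries. Before thinning the share was 71.4%, at a median of 9617.5 UMIs per cell, and 28.2% to 39.9% in the others, at medians of 4038 to 7612 UMIs. UMIs of 2 or more members were found in 9 of 140 thinned live allogeneic cells, or 6.43% (2.98% to 11.9%), and in 0.450% to 1.13% of cells in the others. The 14 live allogeneic cells with the most Gbp UMIs, 10% of the class, held 56.2% of them, and 1 cell held 53. For Gbp2 alone, UMIs were found in 0% to 1.68% of pDC-like cells before thinning, at medians of 4331 to 9299 UMIs. That is the share of a single gene, so it gives no background for the shares of cells with any member.

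The cDC2-like class held 3 clusters that did not share the difference evenly. Cluster 1, led by Cd209a, Wfdc17 and Lyz2, had 612 CPM of the members in live allogeneic and 170 CPM in live isogeneic, a ratio of 3.61 (2.96 to 4.42). Cluster 12, led by Ffar2, had 190 and 105 CPM, a ratio of 1.82 (1.41 to 2.33). Cluster 21, led by cell division genes, had 163 and 33.0 CPM, a ratio of 4.95 (2.97 to 8.64). Cluster 1 made up 33.6% of live allogeneic cDC2-like cells and 20.3% to 25.4% in the other libraries. The sum of the members was thus higher within each cluster, though not every member was: Gbp9 in cluster 1 had a ratio of 1.31 (0.763 to 2.25). The cluster with the highest level also had the larger share.

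Markers of other cells differed as well. Of 6 measured classical monocyte markers, 5 were higher in the live allogeneic cDC2-like class, and the 10 listed summed to 7236 CPM there and 3916 to 4730 CPM in the other libraries. Of 8 measured red pulp macrophage markers, 7 were higher, summing to 548 CPM against 162 to 337 CPM. Of 18 cDC2 markers, 7 were lower and 0 higher, and none of the 3 lists had a marker at 0 in all libraries. Their part in the result was not tested.

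In follicular and other B-like cells, 5 of 7 members were higher in live allogeneic than in live isogeneic, beside 6.45% of all genes. Against saline, 7 of 7 were higher, beside 6.01% of all genes. The sum was 527 CPM in live allogeneic, 163 CPM in saline and 188 CPM in live isogeneic, and it was 134 and 147 CPM in the allogeneic and isogeneic libraries of the apoptotic pair. The ratio to live isogeneic was 2.80 (2.54 to 3.10).

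Gbp7 had 136 CPM in these cells of the live allogeneic library against 16.3 to 23.3 CPM in the other 4, a ratio to live isogeneic of 6.03 (4.68 to 7.83). Gbp2 had 70.2 CPM against 9.41 to 16.6 CPM, a ratio of 7.07 (4.86 to 10.5). Gbp6 had 42.6 CPM against 1.21 to 3.90 CPM, a ratio of 11.3 (6.35 to 21.7), though its counts are uncertain through Gbp10. None of these 3 overlapped with the other libraries. Gbp4 had a ratio of 3.18 (2.55 to 3.97) and Gbp5 one of 2.17 (1.58 to 2.98). Gbp3 had 40.3 CPM and 39.2 CPM in the live pair, a ratio of 1.03 (0.762 to 1.38), and 20.9 to 23.5 CPM in the other 3 libraries. Gbp9 had 71.4 and 53.1 CPM, a ratio of 1.34 (1.06 to 1.69). Gbp3 was therefore among the members with a large ratio in cDC2-like cells and among those with a small one in B-like cells.

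The live allogeneic library also had another makeup of the B-like class. A cluster led by the interferon-induced genes Ifit3, Ifi208 and Ifi213 held 55.8% of live allogeneic follicular and other B-like cells and 3.36% to 4.58% in the other libraries. Within it the sum was 704 CPM in live allogeneic and 525 CPM in live isogeneic, a ratio of 1.34 (1.07 to 1.70). In the other clusters together it was 236 and 173 CPM, a ratio of 1.37 (1.14 to 1.63). Interferon-induced genes define this cluster, so that the split follows the difference itself, and neither its size nor the ratios within the parts show how much of the difference the makeup carries. Single members were further apart within the parts. In the interferon-led cluster Gbp2 had a ratio of 5.27 (1.76 to 25.9) and Gbp7 one of 2.09 (1.24 to 3.80), while Gbp3 had 0.491 (0.266 to 0.966) and Gbp9 0.585 (0.367 to 0.969). In the other clusters together Gbp6 had 4.76 (1.47 to 15.01), Gbp2 2.24 (1.11 to 4.28), Gbp7 1.73 (1.02 to 2.84) and Gbp4 1.71 (1.16 to 2.47). The sums thus put members with opposite differences together, and cluster 2, one of the others, had a sum ratio of 1.99 (1.44 to 2.71).

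**Figure D4:**
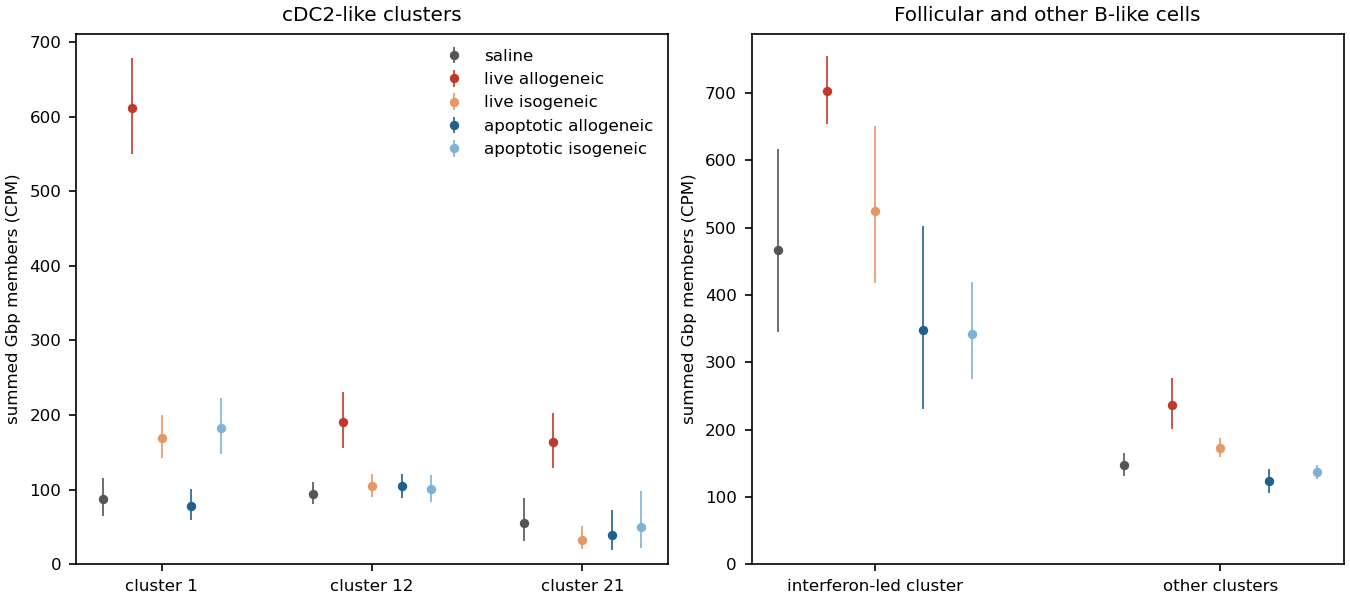
Summed level of the members, in CPM, in the 3 cDC2-like clusters (left) and in the interferon-led cluster and the other clusters of follicular and other B-like cells (right). Points are libraries and bars are exact 95% Poisson intervals. In cluster 1 the live allogeneic point is at 612 CPM and the others at 77.3 to 182 CPM.

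In CD4 T-like cells, 6 of 7 members were higher in live allogeneic than in live isogeneic, beside 13.7% of all genes, and 6 of 6 measured against saline, beside 12.7%. The live allogeneic library held 53 of these cells. The sum was 723 CPM there, against 285 CPM in saline, 326 CPM in live isogeneic, 278 CPM in apoptotic allogeneic and 238 CPM in apoptotic isogeneic, and its ratio to live isogeneic was 2.21 (1.87 to 2.62). Gbp3 had the largest ratio, 5.48 (2.39 to 13.1), on 16 and 11 UMIs. Over the class Gbp9 had the smallest ratio, 1.26 (0.694 to 2.18). A member was found in 39.6% of thinned live allogeneic cells (26.5% to 54.0%) and in 18.1% to 29.2% in the others.

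Across the 10 classes, the sum was at least 1.5-fold higher in live allogeneic than in live isogeneic in 6 and lower in 0. The ratio was 2.13 (1.503 to 3.05) in red pulp macrophage-like cells, which clear old red blood cells. It was 1.89 (1.62 to 2.21) in erythroid-like cells and 1.54 (1.13 to 2.09) in pDC-like cells. Of 1778 genes measured in all 10 classes, 2.25% were higher in at least 6. That share is of single genes, while the Gbp count is of a sum, so the share gives no rank of the family. Against saline the sum was higher in 8 of 11 classes. Between live isogeneic and saline it was higher in 0 of 12 classes, with ratios of 0.894 to 1.25.

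Marginal zone B-like cells, at 1.48 (1.23 to 1.77), and CD8 T-like cells, at 1.46 (1.29 to 1.64), lay just under 1.5-fold. The CD8 T-like value mixed clusters that make up different shares of the class in the live pair. In cluster 4, led by Cd8b1 and Dapl1, the sum was 1122 against 363 CPM, a ratio of 3.09 (2.63 to 3.63), and its 7 members had ratios of 2.60 (Gbp9) to 3.98 (Gbp2). All 7 were past 1.5-fold there, beside 9.45% of all genes measured in that cluster. In cluster 10, led by Cxcr6 and Il2rb, the ratio was 1.02 (0.782 to 1.32). Cluster 32, led by Xcl1 and Gzmc, held 19 live allogeneic and 10 live isogeneic cells, with 285 and 245 CPM. It made up 19% of CD8 T-like cells in live allogeneic and 3.83% in live isogeneic, and its cells had a median of 15997 UMIs over all libraries. The split by cluster was made after the values were seen. The interval of the ratio held 1 in cDC1-like cells, at 1.11 (0.819 to 1.499), or in natural killer-like cells, at 0.936 (0.686 to 1.26). Of the cDC1-like clusters, cluster 13 had a ratio of 0.804 (0.542 to 1.17) and cluster 19 one of 3.72 (1.87 to 7.51), the latter on 21 and 17 UMIs. Ifng, the gene of interferon-gamma itself, had 64.5 to 127 CPM in natural killer-like cells and 8.37 to 16.9 CPM in CD8 T-like cells. In natural killer-like cells of live allogeneic it had 70.8 CPM, on 12 UMIs, and in those of saline 79.5 CPM. CD4 T-like cells had 0 CPM in live allogeneic and 20.4 CPM in saline, the latter on 10 UMIs. Classical monocyte-like cells had 50.1 CPM in apoptotic isogeneic, on 12 UMIs, and 0 CPM in live isogeneic.

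Single members were counted in the same classes. In CD8 T-like cells as a whole 2 of 7 measured members were higher, beside 19.0% of all genes, while all 7 were in cluster 4 alone, and in marginal zone B-like cells 1 of 6, beside 7.03%. In erythroid-like cells 3 of 4 were higher, beside 3.98%, and Gbp7 had 105 CPM against 54.2 CPM. In red pulp macrophage-like cells 1 of 2 was higher, beside 21.3%, and this was Gbp7, at 247 against 64.6 CPM. In pDC-like cells 1 of 2 was higher, beside 10.2%, and in natural killer-like cells 0 of 3, beside 12.0%. In cDC1-like cells 1 of 4 was higher, beside 10.3%. It was Gbp2, with 17.3 CPM in live allogeneic, 7.02 CPM in saline, 4.42 CPM in live isogeneic, 0.718 CPM in apoptotic allogeneic and 16.1 CPM in apoptotic isogeneic. The live allogeneic value of Gbp2 in cDC1-like cells was thus close to that of the apoptotic isogeneic library. In cDC1-like cells of the latter, 1 cell held 27 UMIs of the members, so its value may rest on few cells. In cDC1-like cells 1 of 4 was also lower in live allogeneic than in live isogeneic, beside 10.1% of all genes. It was Gbp4, with a ratio of 0.392 and a live allogeneic level of only 4.13 CPM. Free RNA of that library had 49.6 CPM of Gbp4.

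**Figure D5:**
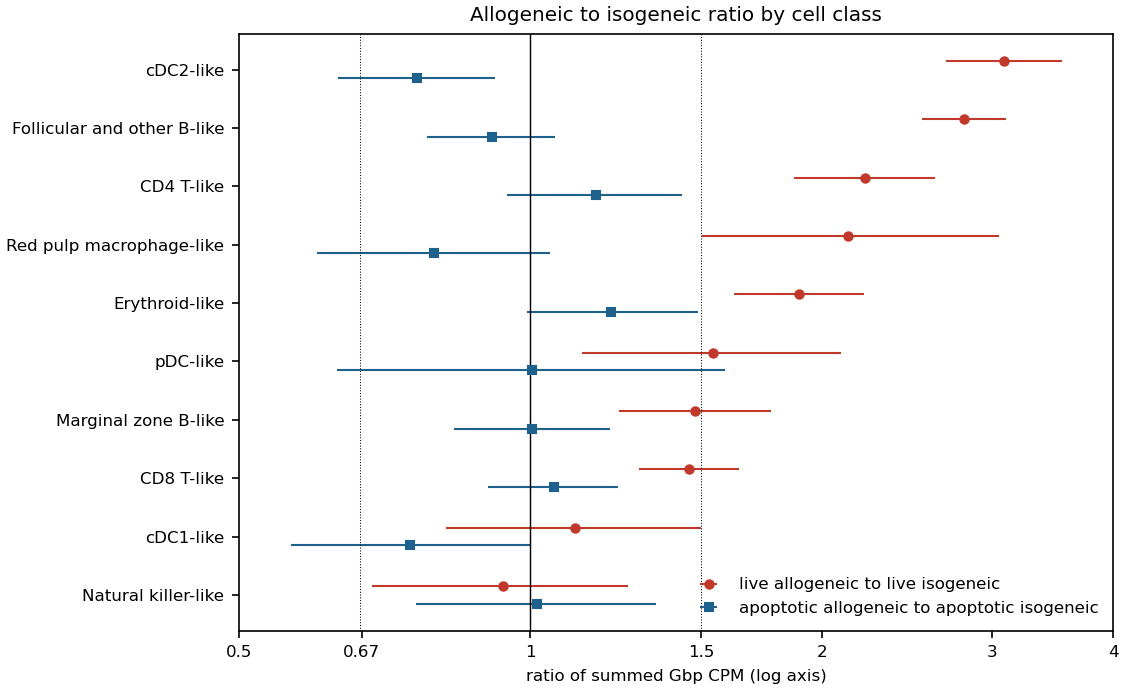
Ratio of the summed level of the members, allogeneic to isogeneic, on a log axis, for live cells (circles) and apoptotic cells (squares) in 10 classes. Bars are exact 95% intervals and dotted lines mark 1.5-fold in either direction. The live ratios reach 3.08 in cDC2-like cells, and no apoptotic ratio passes a dotted line.

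The apoptotic pair showed no difference of this size in the sum. It was at least 1.5-fold higher in apoptotic allogeneic than in apoptotic isogeneic in 0 of 13 classes and lower in 0, with ratios of 0.751 to 1.21. In cDC2-like cells the ratio was 0.763 (0.633 to 0.920), and 2 of 6 members were lower, beside 5.35% of all genes. Gbp2 had 8.58 and 19.6 CPM there, a ratio of 0.438 (0.247 to 0.759), and Gbp3 had 7.02 and 12.9 CPM, a ratio of 0.544 (0.280 to 1.04). Cluster 1 had 77.3 and 182 CPM, a ratio of 0.424 (0.2998 to 0.595), cluster 12 a ratio of 1.04 (0.819 to 1.32), and cluster 21 one of 0.799 (0.284 to 2.33) on 10 and 8 UMIs. Against saline the cDC2-like sum was 1.02 (0.843 to 1.23) in apoptotic allogeneic and 1.33 (1.10 to 1.61) in apoptotic isogeneic. In red pulp macrophage-like cells it was 1.36 (0.971 to 1.90) and 1.70 (1.25 to 2.35) in these libraries. The comparisons share the saline library.

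Other genes of the pathway were taken from lists. Their counts in cDC2-like cells stand beside 11.5% of all genes higher and 13.3% lower in this comparison. Of 7 measured immunity-related GTPases, relatives that also act on vacuoles, 6 were higher in cDC2-like cells of live allogeneic than of live isogeneic. Ifi47 had 105 against 23.1 CPM, Igtp 50.2 against 17.2 CPM, Tgtp2 36.7 against 13.3 CPM and Irgm2 29.97 against 19.2 CPM. Of the Gbp genes outside the 7, Gbp8 is given above, and Gbp2b and Gbp10 had 1 and 0 UMIs each. In follicular and other B-like cells 7 of 7 immunity-related GTPases were higher, and in CD4 T-like cells 5 of 7.

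Of 7 genes of interferon receptors and their kinases, 0 were higher in cDC2-like cells and 2 were lower, counts too small to set apart from those shares of all genes. Ifngr1, which binds interferon-gamma, had 217 against 361 CPM, and its partner Ifngr2 had 63.6 against 99.4 CPM. Against saline neither was past 1.5-fold, with ratios of 0.739 (0.649 to 0.840) for Ifngr1 and 0.918 (0.713 to 1.18) for Ifngr2. Ifnar1, Ifnar2, Jak1, Jak2 and Tyk2 lay between 0.854 and 1.16 times the live isogeneic level. Of 9 transcription factors and brakes of the pathway, 6 were higher, among them Stat2 at 106 against 51.6 CPM, Irf8 at 143 against 82.5 CPM and the brake Usp18 at 73.4 against 39.3 CPM.

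All 13 measured genes of the list led by the Ifit genes, known for type I interferon, were higher. Isg15 had 464 against 87.1 CPM, Irf7 247 against 54.2 CPM, Oasl2 127 against 47.7 CPM and Rtp4 101 against 45.8 CPM. Of 10 measured genes known to be led by interferon-gamma, 6 were higher. Cxcl9, a chemokine for T cells, had 449 against 62.7 CPM, Psmb9 469 against 244 CPM, Serpina3g 198 against 131 CPM and Tap1 189 against 104 CPM.

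Genes of known partners of the proteins were counted by group. Of 9 inflammasome and pyroptosis genes, 5 were higher: the adaptor Pycard had 236 against 126 CPM, Casp1 72.2 against 38.7 CPM, the pore protein Gsdmd 73.4 against 37.0 CPM and Casp4 23.2 against 12.0 CPM. Of 10 genes of ATG conjugation, the machinery that helps to place the proteins on vacuoles, 0 were higher or lower. With 10 genes this count is too small to set apart from the shares of all genes. Of the prenylation enzymes Pggt1b, Fnta, Rce1 and Icmt 0 of 4 were past 1.5-fold, and Fntb was not measured. Among 8 stress genes, Hspa1a and Hspa1b were higher, Fos, Junb and Egr1 were lower, and Jun, Atf3 and Dnajb1 were between. The RNA quality genes Gm42418, AY036118 and Lars2 were all lower, and Gm42418 is the gene in which the live isogeneic library stood apart.

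The genes most like the members in pattern were sought among 9407 genes over 68 sums of a class in a library. Points that share a class or a library are not independent, and the correlations are descriptions. With the mean of each class subtracted, the mean of the members on the log2(CPM + 10) scale was most like genes that included Zbp1 (r = 0.901), Ifi47 (0.882), Isg15 (0.840), Igtp (0.837), Iigp1 (0.811), Rtp4 (0.807), Ifit3 (0.779), Tgtp2 (0.770) and Psmb9 (0.763). Over all sums, differences between classes included, the highest were Ifi206 (0.709), Atxn1 (0.706), Ccnd2 (0.697), Parp14 (0.677), Herc6 (0.669), Cflar (0.663), Bcl9l (0.663), Ifi208 (0.659), Gimap4 (0.658) and Mllt6 (0.654). Among the members themselves, with class means subtracted, Gbp7 was most like the mean of the other 6 (r = 0.780) and Gbp9 least (0.265).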

How the data were processed

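Single-cell 3′ libraries were made with 10x Genomics chemistry, per the labels' protocols. The authors deposited a matrix of UMI counts for each library, produced by Cell Ranger 4.0 with the mm10 build, per the submitters' processing notes, without normalization. Barcodes passing the filters (at least 1000 UMIs, 500 genes, at most 10% mitochondrial UMIs) numbered 2902 for saline, 1186 and 3685 for the live pair (allogeneic, isogeneic) and 2118 and 6380 for the apoptotic pair. Scrublet in scanpy 1.11.5 removed 139 in all, or 0.0843% to 1.83% of a library, so doublets may remain. Clustering used 2000 variable genes, 30 components, 15 neighbours and Leiden resolution 1, giving 34 clusters. A cluster was named with at least 3 markers and 25% of a list past a log2 ratio of 1 in at least 10% of its cells. In all, 369 cells stayed unnamed. Counts were summed per class and library. Ratios were checked on counts simulated as Poisson, a check that does not cover UMIs gathered in few cells. The members and gene lists were chosen with earlier results of these data known. All members were named. Of each longer list the text names the 4 genes with the most UMIs past 1.5-fold, and of lists of up to 8 genes every gene. 1 gene that this rule and the pattern search would name is not reported here. The alternatives concern filters, clustering, depth, scaling and doublets.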

Additional observations from a re-analysis of the deposited data

Results flagged for a closer look

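The summed members and Gbp2 differed in opposite directions in the live and the apoptotic pair of cDC2-like cells. The allogeneic to isogeneic ratio of the sum was 3.08 for live and 0.763 for apoptotic cells, and that of Gbp2 was 4.97 and 0.438. Gbp2 in cDC1-like cells had ratios of 3.92 and 0.0446, the latter on 2 and 28 UMIs, and Gbp7 in red pulp macrophage-like cells had 3.82 and 0.513. In each case both 95% counting intervals left out 1 on opposite sides. The difference between the pairs was not tested, since each group is 1 library.

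Members were also found outside the cells, in barcodes of at most 100 UMIs. Their summed level was 118.5 CPM in the saline, 248.9 CPM in the live allogeneic, 160.0 CPM in the live isogeneic and 157.2 CPM in the apoptotic isogeneic library, above the limit that a count of 0 allows.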

How the results depend on the processing

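The ratio of the summed members in cDC2-like cells, live allogeneic to live isogeneic, stayed within its counting interval at 2.82 to 3.242, under 7 other choices of depth, mitochondrial limit, clustering, scaling and doublets. With cells thinned to 1000 UMIs, the ratio to saline became 3.10, that of the apoptotic pair 0.968, and 1 member was counted as higher in place of 5, since few UMIs remain. Clusters taken alone were chosen after seeing the data. The live, apoptotic and saline ratios were 3.609, 0.424 and 6.966 in cluster 1 and 1.818, 1.039 and 2.011 in cluster 12. In cluster 21 they were 4.947, 0.7994 and 2.981, and 3 members were counted as higher. The share of all genes past 1.5-fold was not taken in cluster 21 or in thinned cells. The member counts there thus stand without a background. The count of classes with a higher sum in live allogeneic lay between 4 and 7, and that of classes with a lower sum in apoptotic allogeneic was 0 throughout. No paired analysis was possible because each group has 1 library. Leaving out a replicate was not possible for the same reason. Depth limits Gbp6 in cDC2-like cells and members with under 20 UMIs.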
